A study of Mus musculus with 6 samples.

Results

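The 10 genes described here encode GATA, SCL and ETS transcription factors shared by endothelium and blood. They are the GATA factors Gata2, Gata3 and Gata6, the basic helix-loop-helix factors Tal1 (also called SCL) and Lyl1 with their partner Lmo2, and the ETS factors Fli1, Erg, Etv2 and Etv6. They were chosen by name, for their place in the hemato-endothelial network, although earlier results of these data were known. In the table they are 10 of 54429 genes. Estimated read counts came from ribodepleted RNA-seq of primary aortic EC of adult WT C57BL/6 mice, with 3 libraries of cells given a Meis1-OE vector and 3 of cells given a YFP-CTRL vector. The comparison asks which genes change when the homeobox factor Meis1 is overexpressed in EC that are not hemogenic. All cells of both groups carried a lentiviral vector, were sorted as YFP+CD31+VEC+ cells, re-plated and grown to confluency before harvest. The cells were purchased primary cultures, vector and endogenous Meis1 reads could not be separated, and p-values measure only the spread between these libraries.

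GATA2, TAL1, LYL1, LMO2, FLI1, ERG and RUNX1 are known to occupy shared enhancers in hematopoietic stem and progenitor cells, where LMO2 bridges a TAL1 or LYL1 dimer with an E protein to a GATA factor through LDB1. ETS factors bind GGAA cores, which occur in most endothelial enhancers, and FLI1 and ERG are needed to keep endothelial identity. In the embryo, Etv2 acts before these genes in forming blood and endothelial progenitors, and Gata2, Tal1 and Lyl1 act in hemogenic endothelium and in the blood cells it gives rise to.

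Total counts ran from 34176592 to 47956569 per library. Libraries of a group are called A, B and C, and values are listed in that order throughout. Meis1 had 135325, 157828 and 149221 counts in Meis1-OE EC but 39, 58 and 85 counts in YFP-CTRL EC, as the labels say. edgeR's quasi-likelihood test called 665 genes higher and 438 lower among 16065 tested genes at an adjusted p under 0.05, and 1048 higher and 179 lower when libraries were scaled to their totals, a scaling that moved the median log2 fold change of all genes from 0.01 to 0.15. The YFP-CTRL libraries differed among themselves in genes of the cell cycle. The mean log2 CPM (library-size-normalized counts, scaled by TMM) of 15 S and G2/M phase genes was 6.39, 6.39 and 6.45 in Meis1-OE EC but 4.21, 5.06 and 6.35 in YFP-CTRL EC, so control C lay nearest to the Meis1-OE libraries and control A farthest from them. Of these 15 genes, 0 passed the threshold in edgeR (2 higher and 0 lower at an unadjusted p under 0.05, 1 higher in DESeq2), and 14 were higher without control C. Over all genes, 4205 of 16065 had an unadjusted p under 0.05 in edgeR, and 2717 of 16443 were higher without control C. The part of this cell cycle difference in the results given here was not tested. Fits without single libraries and a fit with the score added are given as descriptions. The score hardly varied among Meis1-OE libraries, so its slope in that fit rested mostly on the controls. Such a fit cannot fully tell the score from the condition. In bulk samples, fewer cells of a type and less RNA per cell cannot be told apart.

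Of the 10 factors, 8 passed the filter on low counts. Only Lmo2 rose at the threshold, 1 of 8 against 4.14% of all tested genes, and 0 of 8 fell, against 2.73%. At an unadjusted p under 0.05, edgeR counted 1 member higher and 1 lower (Gata2), and DESeq2 called the same 2 members after adjustment. Of all 16065 tested genes, 4205 had such an unadjusted p in edgeR. Meis1-OE libraries lay wholly above the YFP-CTRL libraries for Lmo2 and Fli1 (17.2% of all tested genes did) and wholly below for Gata2 and Etv6 (15.9%). The median log2 fold change of the 8 factors was -0.02, against 0.01 over all tested genes. Without control C, edgeR called 2 factors higher (Lmo2 and Fli1) and 2 lower (Gata2 and Gata3), but it then also called 2717 genes higher and 2498 lower of 16443 tested.

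**Figure D1:**
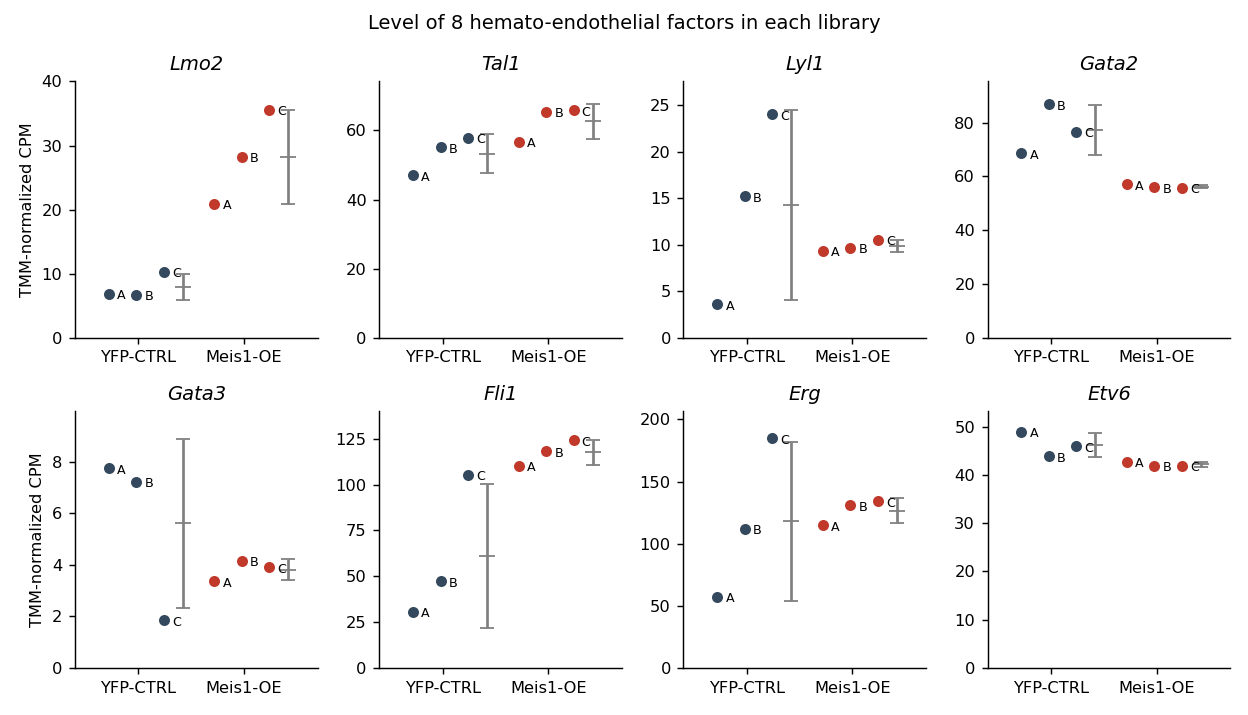
Level of the 8 tested factors in each library, in TMM-normalized CPM on a linear axis from 0, with dark points for YFP-CTRL and red points for Meis1-OE libraries (A to C from left to right) and grey marks for the mean and SD of 3 libraries. Lmo2 lay between 20.9 and 35.6 CPM in Meis1-OE EC and between 6.72 and 10.3 CPM in YFP-CTRL EC, while Lyl1, Gata3, Fli1 and Erg were spread widely among the controls.

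Lmo2, the LIM-only bridging protein of the SCL complex (RefSeq, GRCm38.p6 chr2:103957903-103981878), was measured at 20.9, 28.2 and 35.6 TMM-normalized CPM in Meis1-OE EC, against 6.83, 6.72 and 10.3 CPM in YFP-CTRL EC. Every Meis1-OE library was above every control, with library A the lowest of the Meis1-OE group and control C the highest of the controls. The underlying counts ran from 954 to 1649 in Meis1-OE and from 232 to 466 in YFP-CTRL libraries. Means were 28.2 ± 7.37 CPM (SD, n = 3) in Meis1-OE EC and 7.93 ± 2.01 CPM (SD, n = 3) in YFP-CTRL EC, a 3.55-fold difference with a 95% interval of 2.35 to 5.37. The log2 fold change was 1.83 (standard error 0.25) at an adjusted p of 0.0107 by edgeR's quasi-likelihood test, and 4.02e-09 by DESeq2. The log2 fold change stayed between 1.49 and 2.04 under 14 alternatives, but the adjusted p rose above the threshold with Meis1-OE library B (0.0625), Meis1-OE library C (0.0543) or YFP-CTRL library B (0.0570) left out. With the S and G2/M score in the fit, the log2 fold change was 1.49 at an edgeR adjusted p of 0.0432.

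Tal1, the helix-loop-helix factor that gives the SCL complex its name, had 56.8, 65.3 and 65.9 CPM in Meis1-OE EC, against 47.1, 55.1 and 57.8 CPM in YFP-CTRL EC. The groups overlapped, with Meis1-OE library A below control C. The log2 fold change was 0.23 (95% interval -0.06 to 0.53, edgeR adjusted p = 0.287), and under no alternative did it pass the threshold. Lyl1, its paralog, had 9.32, 9.67 and 10.6 CPM in Meis1-OE libraries against 3.59, 15.2 and 24.0 CPM in controls A, B and C. The Meis1-OE libraries were close to each other and lay inside the wide control range. For Lyl1 the log2 fold change was -0.54 (95% interval -1.85 to 0.77, edgeR adjusted p = 0.579). It was -1.004 without control A (edgeR adjusted p = 0.0399) and 0.04 without control C (0.970), and -1.63 with the S and G2/M score in the fit (0.0584), so the direction depended on which control was kept, and over all alternatives the adjusted p ran from 0.0399 to 0.970.

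The promoter windows of Tal1 and Lyl1 are shown to set beside their levels the letters that this network's factors are known to bind. Tal1 has 2 windows, of which the first on the chromosome is printed. Windows run from 250 bases before to 50 bases after a start site, are printed 5′ to 3′ on the gene's strand, and come from RefSeq on GRCm38.p6. Of the 10 members, 7 had a window among those searched, with 11 windows among them. Lmo2 and Fli1 had none, and Gata6 was not looked up because its chromosome was left out of the search. Capitals mark matches on either strand to 4 motifs. ETS factors were searched by their core GGAA. GATA factors were searched by AGATAA. The SCL dimer was searched by the E-box CAGATG. Meis factors were searched by TGACAG. Matches to different motifs did not overlap in the windows shown. The windows printed are Tal1 at chr4:115056176-115056475, plus strand, and Lyl1 at chr8:84701207-84701506, plus strand.
Tal1: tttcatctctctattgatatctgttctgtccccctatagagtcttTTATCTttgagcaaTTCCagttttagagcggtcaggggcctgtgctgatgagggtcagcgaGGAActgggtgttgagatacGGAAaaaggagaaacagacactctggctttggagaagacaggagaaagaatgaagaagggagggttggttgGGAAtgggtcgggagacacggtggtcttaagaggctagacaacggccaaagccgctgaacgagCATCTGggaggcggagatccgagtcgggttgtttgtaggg
Lyl1: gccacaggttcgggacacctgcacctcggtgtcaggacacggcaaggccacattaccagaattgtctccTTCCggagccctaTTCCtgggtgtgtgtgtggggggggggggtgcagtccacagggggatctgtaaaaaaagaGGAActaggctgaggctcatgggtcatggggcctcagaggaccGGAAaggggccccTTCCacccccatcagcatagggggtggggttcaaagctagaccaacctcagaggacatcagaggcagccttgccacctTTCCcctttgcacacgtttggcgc
This Tal1 window held 4 GGAA matches, where 46.3% of 32851 RefSeq windows held at least 4, with 1 AGATAA match 205 bases before the start (a motif present in 11.2% of windows) and 1 CAGATG match 11 bases after it (17.2%). The other Tal1 window, at chr4:115057561-115057860, also held 4 GGAA matches and 0 matches to the other motifs. The Lyl1 window held 6 GGAA matches and 0 matches to the other motifs. At least 1 GGAA match was found in 96.0% of windows and at least 6 in 15.7%. A match describes the letters of a window and not a bound site.

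Gata2, the GATA factor of hematopoietic stem cells and endothelium (GRCm38.p6 chr6:88193891-88207032), had 57.1, 55.9 and 55.8 CPM in Meis1-OE EC, against 68.6, 86.9 and 76.6 CPM in YFP-CTRL EC. All Meis1-OE libraries lay below all controls, and the highest was 1.02 times the lowest, against 1.27 times among the controls. The mean was 56.3 ± 0.709 CPM (SD, n = 3) against 77.3 ± 9.18 CPM (SD, n = 3). The log2 fold change of -0.46 (standard error 0.12, 95% interval -0.74 to -0.18) did not pass the threshold in edgeR, at an adjusted p of 0.0647 and an unadjusted p of 0.0058. DESeq2 gave an adjusted p of 0.0366. It was negative under 14 of 14 alternatives, with adjusted p values from 0.0290 to 0.277, and passed the threshold in edgeR without YFP-CTRL library A (0.0413) or C (0.0290).

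Gata3, better known from T cells and trophoblast, was the lowest of the tested factors, with 3.37, 4.16 and 3.91 CPM in Meis1-OE libraries against 7.74, 7.23 and 1.85 CPM in controls A, B and C. Controls A and B were above, and control C below, every Meis1-OE library. The log2 fold change was -0.55 (95% interval -1.67 to 0.57, edgeR adjusted p = 0.502). Without control C it was -0.98 (edgeR adjusted p = 0.0051), and with the S and G2/M score in the fit it turned to 0.86 (0.260); over all alternatives the adjusted p ran from 0.0051 to 0.791. Gata6, a GATA factor of heart, gut and vascular smooth muscle, had 1 count in Meis1-OE library A and 0 counts in the other 5 libraries, where a count of 0 allows up to 3 counts, or 0.0648 to 0.0883 CPM. It was not detectable at this depth.

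Fli1, the ETS factor of endothelium and megakaryocytes (GRCm38.p6 chr9:32422204-32543432), had 110.3, 118.2 and 124.2 CPM in Meis1-OE EC, against 30.7, 47.2 and 105.5 CPM in YFP-CTRL EC. The Meis1-OE libraries were all above the controls, but control C came close to Meis1-OE library A. Means of 117.6 ± 6.98 CPM and 61.1 ± 39.3 CPM (SD, n = 3 each) gave a log2 fold change of 0.94 (95% interval -0.01 to 1.89), short of the threshold in edgeR (adjusted p = 0.194). Without control C the value was 1.58 at an edgeR adjusted p of 0.00244, and with the S and G2/M score in the fit it was 0.12 at 0.627. These were the lowest and highest adjusted p over 14 alternatives.

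Erg, the nearest paralog of Fli1 and a factor of mature endothelium (GRCm38.p6 chr16:95359169-95586600), had 114.8, 131.0 and 134.0 CPM in Meis1-OE libraries and 57.4, 112.2 and 184.8 CPM in controls A, B and C. The Meis1-OE levels lay inside the control range. The log2 fold change was 0.10 (95% interval -0.76 to 0.96, edgeR adjusted p = 0.895). It was -0.24 without control A, 0.56 without control C and -0.68 with the S and G2/M score in the fit (edgeR adjusted p = 0.0633, the lowest over the alternatives, which reached 0.962). Erg's window at chr16:95459299-95459598, minus strand, is printed as the only one of the 11 with a Meis match.
Erg: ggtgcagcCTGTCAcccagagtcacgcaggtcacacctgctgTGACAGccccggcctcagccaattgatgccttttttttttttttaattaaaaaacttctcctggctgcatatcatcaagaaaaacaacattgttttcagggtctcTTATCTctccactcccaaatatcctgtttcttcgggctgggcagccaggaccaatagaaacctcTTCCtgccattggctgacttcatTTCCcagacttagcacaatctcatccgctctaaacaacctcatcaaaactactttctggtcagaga
Capitals mark 2 TGACAG matches that begin 242 and 208 bases before the start, 1 AGATAA match 103 bases before it and 2 GGAA matches. At least 1 TGACAG match was found in 19.2% of all windows and at least 2 in 2.33%. Erg has 2 further windows, at other starts, and the total count per gene does not say which start was used.

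Etv6, a transcriptional repressor of the ETS family, was the steadiest factor, with 42.8, 41.9 and 41.9 CPM in Meis1-OE libraries and 48.9, 43.9 and 46.0 CPM in controls. Meis1-OE libraries lay below the controls by a small margin, and the log2 fold change of -0.13 (95% interval -0.37 to 0.11, edgeR adjusted p = 0.449) stayed negative under 13 of 14 alternatives and never passed the threshold. It was 0.0075 when scaled to library totals, where the median of all genes was 0.15, so Etv6 was below that median too. Etv2, the ETS factor that starts the endothelial and blood program, had 1 count in control C and 0 counts in the other 5 libraries, and so was not detectable either.

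**Figure D2:**
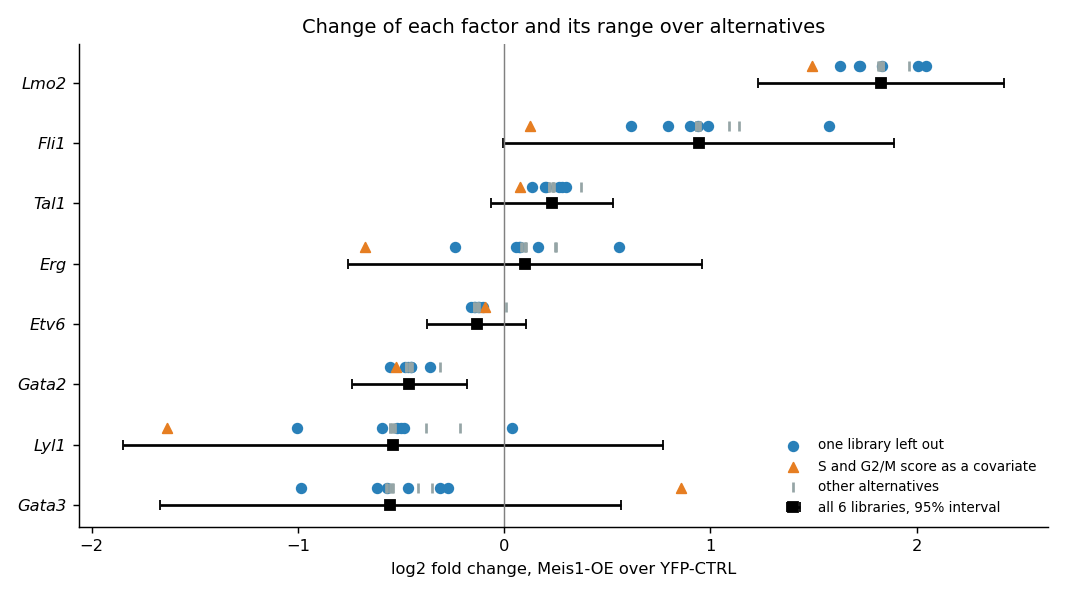
Log2 fold change (Meis1-OE over YFP-CTRL) of the 8 tested factors, with black squares and bars for the fit on all libraries and its 95% interval, and, above each, blue circles for fits with a library left out, an orange triangle for the fit with the S and G2/M score and grey ticks for other alternatives. Lmo2 lies at 1.83 with a range of 1.49 to 2.04, and Gata2 at -0.46. The alternatives cross 0 for Gata3, Lyl1 and Erg, and barely for Etv6 (0.0075 with library totals).

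Levels of different genes are compared here only per kilobase of transcript, as CPM per kb of the longest protein-coding transcript (GENCODE vM1, build NCBIM37). In YFP-CTRL EC the order was Erg (35.3 ± 19.1), Gata2 (23.9 ± 2.83), Fli1 (19.7 ± 12.6), Tal1 (12.7 ± 1.32), Etv6 (8.11 ± 0.445), Lyl1 (7.93 ± 5.70), Lmo2 (4.65 ± 1.18) and Gata3 (1.74 ± 1.02) CPM per kb (SD, n = 3). Only Tal1 and Etv6, and Lmo2 and Gata3, were neighbours in that order whose libraries did not overlap. In Meis1-OE EC, Erg (37.8 ± 3.08) and Fli1 (37.8 ± 2.24) stood together above Gata2 (17.4 ± 0.219), Lmo2 (16.6 ± 4.32) and Tal1 (14.9 ± 1.21), whose ranges overlapped from one to the next, and then came Etv6 (7.39 ± 0.0904), Lyl1 (5.47 ± 0.355) and Gata3 (1.19 ± 0.126), each apart from its neighbours. Lmo2 thus moved from rank 7 to rank 4, where its libraries overlapped those of Tal1.

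Ratios within a library do not depend on how libraries are scaled. 4 ratios per kb were taken, chosen after the values had been seen. Tal1 over Lmo2 was 2.79, 3.32 and 2.28 in YFP-CTRL EC but 1.10, 0.937 and 0.749 in Meis1-OE EC. The groups did not overlap, and the mean log2 ratio was lower in Meis1-OE EC by a difference of -1.59. Erg over Fli1 was 1.74, 2.21 and 1.63 in controls and 0.967, 1.03 and 1.0 in Meis1-OE libraries. Here too the groups did not overlap (difference in mean log2 ratio -0.88), although each gene alone varied more than 3-fold among the controls. Exact permutation tests gave a two-sided p of 0.1 for both, the smallest that 3 libraries against 3 allow, and 0.2 after adjustment over the 4 ratios. The adjustment does not cover the choice of these ratios after the values had been seen, so these p-values are descriptive only. Tal1 over Lyl1 (5.60, 1.55 and 1.03 in controls, 2.60, 2.89 and 2.67 in Meis1-OE libraries, exact permutation p = 0.7) and Gata2 over Gata3 (8.78, 11.9 and 41.1 in controls, 16.8, 13.3 and 14.2 in Meis1-OE libraries, exact permutation p = 1.0) overlapped.

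**Figure D3:**
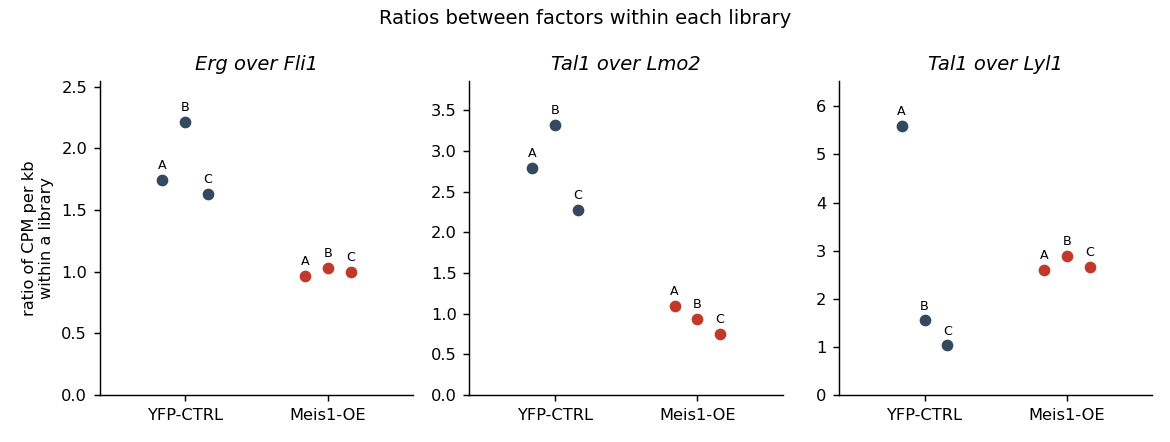
Ratio of 2 factors within each library, per kb of transcript, for each YFP-CTRL and Meis1-OE library. Erg over Fli1 lies between 1.63 and 2.21 in controls and between 0.967 and 1.03 in Meis1-OE libraries, and Tal1 over Lmo2 also separates the groups.

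Some factors varied widely among the controls. The highest over the lowest control level was 6.69 for Lyl1, 4.19 for Gata3, 3.44 for Fli1 and 3.22 for Erg. It was at least 3 for these 4 of 8 factors and for 7.39% of all tested genes, whose median was 1.46. Among Meis1-OE libraries it reached 3 for 0 of 8 factors and for 1.03% of genes, with a median of 1.18. Tal1, Lyl1, Fli1 and Erg were lowest in control A and highest in control C, as were 25.6% of tested genes, and Gata3 had the opposite order, as did 21.3%. The S and G2/M score had the first of these orders as well. This was a description of 3 libraries and was not tested.

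**Figure D4:**
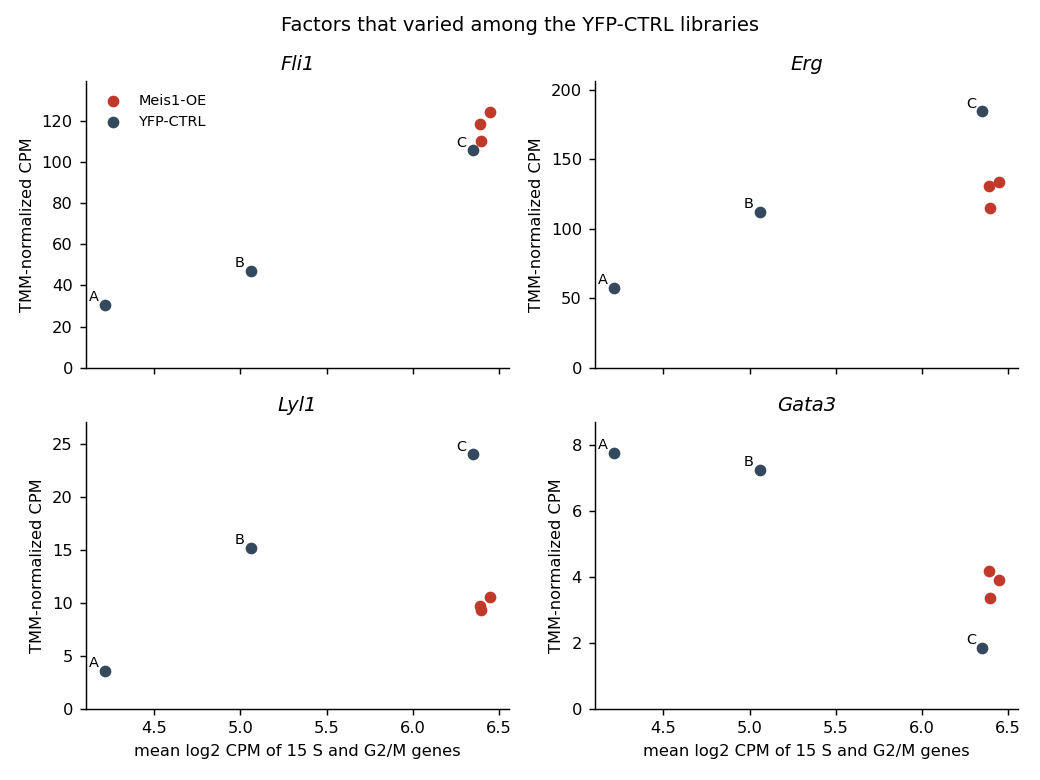
Level of Fli1, Erg, Lyl1 and Gata3 (TMM-normalized CPM, linear axis from 0) against the mean log2 CPM of 15 S and G2/M phase genes, with 1 point per library. The controls, marked by letter, spread from 4.21 to 6.35 on the horizontal axis while the Meis1-OE libraries stand together between 6.39 and 6.45, where control C is nearest to them, above them for Erg and Lyl1 and below them for Fli1 and Gata3.

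Other members of the same pathways were taken from lists. Beside the counts of each list below, 4205 of all 16065 tested genes had an unadjusted p under 0.05 in edgeR. DESeq2 called 1128 of all genes higher and 1115 lower. Of 7 other GATA factors and cofactors, 5 were tested and 0 passed the threshold in edgeR, with 0 higher and 3 lower (Gata4, Zfpm2 and Gatad2b) at an unadjusted p under 0.05 and 0 higher and 2 lower in DESeq2. Without control C, 3 were lower, beside 2498 of 16443 genes in all. The median log2 fold change of the list was -0.49, against 0.01 over all genes, and -0.18 with the S and G2/M score in the fit. The most abundant, Gatad2a, a subunit of the NuRD repressor complex, had 274.9, 283.0 and 296.6 CPM in Meis1-OE libraries and 240.8, 260.0 and 322.5 CPM in controls, which overlapped. Gatad2b, its paralog, had a log2 fold change of -0.49 (edgeR adjusted p = 0.106), and Zfpm1, the cofactor FOG1, 0.03 (0.917). Gata4 (6.37, 6.50 and 6.95 CPM against 13.5, 12.2 and 8.08 CPM, log2 fold change -0.77, edgeR adjusted p = 0.0729) and Zfpm2, the cofactor FOG2 (-0.73, 0.0516), were named after their values were seen. With the score in the fit, Gata4 was at -0.31 and Gatad2b at -0.16, and without control C at -0.97 and -0.65, where both passed in edgeR (adjusted p = 0.0022 and 0.0023), as did Zfpm2 (0.0288).

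Of 19 partners and antagonists of the SCL complex, 15 were tested and 0 passed in edgeR (4 higher and 2 lower at an unadjusted p under 0.05, 2 higher and 1 lower in DESeq2), with a median log2 fold change of 0.14. Scaled to library totals, 3 were higher, beside 1048 of 16065 genes in all. Without control C, 4 were higher and 2 lower, beside 2717 and 2498 of 16443 genes in all. Tcf4, an E protein that dimerizes with TAL1, had 240.8, 268.9 and 266.7 CPM in Meis1-OE libraries and 213.2, 196.6 and 194.9 CPM in controls, a log2 fold change of 0.36 (edgeR adjusted p = 0.0798) with no overlap. The E protein Tcf12 had a log2 fold change of -0.18 (0.398), and the adaptor Ldb1 one of -0.27 (0.181). Cbfa2t3 (ETO2), a corepressor of the complex, had 48.4, 58.9 and 60.8 CPM against 33.7, 40.4 and 42.5 CPM (0.53, edgeR adjusted p = 0.0717), and Lmo4, a relative of Lmo2 that also binds LDB1, had 11.9, 12.8 and 11.6 CPM against 43.7, 39.3 and 12.0 CPM in controls A, B and C (-1.39, 0.0994). Both were named after their values were seen, and Lmo4 in control C lay within its Meis1-OE levels. Without control C, Lmo4 was at -1.79 (edgeR adjusted p = 0.00038), and with the S and G2/M score in the fit at -0.11 (0.870). Tcf4 (0.0315), Tcf12 (0.0377) and Cbfa2t3 (0.0204) also passed in edgeR without control C. The median of the list was -0.11 with the score in the fit.

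Of 22 other ETS factors, 16 were tested and 0 passed in edgeR (3 higher and 2 lower at an unadjusted p under 0.05, 2 higher and 1 lower in DESeq2), with a median log2 fold change of 0.05. Without control C, 4 were higher and 2 lower, beside 2717 and 2498 of 16443 genes in all. Elk3, a ternary complex factor of endothelium, had 275.2, 294.7 and 314.8 CPM in Meis1-OE libraries and 147.2, 195.0 and 273.3 CPM in controls (0.52, edgeR adjusted p = 0.179). It was 0.77 without control C (edgeR adjusted p = 0.0101) and 0.07 with the S and G2/M score in the fit (0.814). Ets2 had 106.2, 134.7 and 155.6 CPM against 167.9, 252.3 and 319.0 CPM (-0.90, 0.0744), below the controls in all Meis1-OE libraries, and Elk4 stood at 0.05 (0.827). For Ets2 the value was -1.13 without control A (edgeR adjusted p = 0.0208) and -1.37 with the score in the fit (0.0185), both past the threshold.

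The 30 endothelial genes listed as targets of these factors, whose regulation by them was not measured here, were all tested. Of these, 2 rose and 1 fell, where 4.14% and 2.73% of all tested genes did. At an unadjusted p under 0.05 in edgeR, 4 were higher and 6 lower, and DESeq2 called 4 higher and 4 lower. The median log2 fold change was 0.05, and it was -0.15 without control A and -0.30 with the S and G2/M score in the fit. Vwf, the clotting factor stored in endothelial granules, had 24.3, 77.6 and 87.1 CPM in Meis1-OE EC, against 8.13, 6.23 and 7.39 CPM in controls. All Meis1-OE libraries were above, with library A well under the other two, and the log2 fold change was 3.12 (standard error 0.46, edgeR adjusted p = 0.0120). Cldn5, a tight junction protein, had 162.7, 205.2 and 245.0 CPM against 26.5, 67.1 and 81.3 CPM (1.81, standard error 0.39, edgeR adjusted p = 0.0398). Tek, the angiopoietin receptor, fell from 66.1, 90.2 and 78.3 CPM to 38.7, 46.4 and 51.4 CPM (-0.78, standard error 0.16, edgeR adjusted p = 0.0351). These calls were lost without single libraries. For Vwf the edgeR adjusted p was 0.0626, 0.0555 and 0.0753 without Meis1-OE library B, Meis1-OE library C and control B, and 0.0588 with the S and G2/M score. For Cldn5 it was 0.0944, 0.153 and 0.160 without Meis1-OE A, B or C in turn and 0.130 without control B. For Tek it was 0.124, 0.173 and 0.109 without Meis1-OE A, B or C in turn and 0.112 without control B. With the S and G2/M score in the fit it was 0.149 for Cldn5 and 0.0570 for Tek. Of the 30 genes, 5 were higher and 4 lower without control C, beside 2717 and 2498 of 16443 genes in all. Without control A, 3 were higher and 7 lower, beside 610 and 431 of 16364. With the score, 0 were higher and 4 lower, beside 328 and 253 of 16065. Without Meis1-OE library B, Meis1-OE library C or control B, 0 were higher and 0 lower.

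Of 24 blood lineage genes, 14 were at or under 3 counts in every library, and 8 were tested, with 0 higher and 1 lower (0 higher and 3 lower at an unadjusted p under 0.05 and in DESeq2), beside 4.14% and 2.73% of all tested genes, and a median log2 fold change of -0.42. Without control C, 1 was higher and 3 were lower, beside 2717 and 2498 of 16443 genes in all. Cd34, a surface sialomucin of progenitors and endothelium, fell from 619.0, 636.8 and 591.0 CPM to 385.0, 385.9 and 384.4 CPM. The log2 fold change was -0.68 (standard error 0.09, edgeR adjusted p = 0.0108), and the adjusted p was 0.0545, 0.0933 and 0.0858 without Meis1-OE A, B or C in turn. Runx1, the factor required for blood to emerge from endothelium, had 62.0, 61.9 and 62.1 CPM in Meis1-OE libraries and 106.1, 102.4 and 52.2 CPM in controls A, B and C. Control C lay below the Meis1-OE libraries and the other controls far above, and the log2 fold change was -0.49 (edgeR adjusted p = 0.271). It was -0.76 without control C (edgeR adjusted p = 0.0013) and 0.18 with the S and G2/M score in the fit (0.628).

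**Figure D5:**
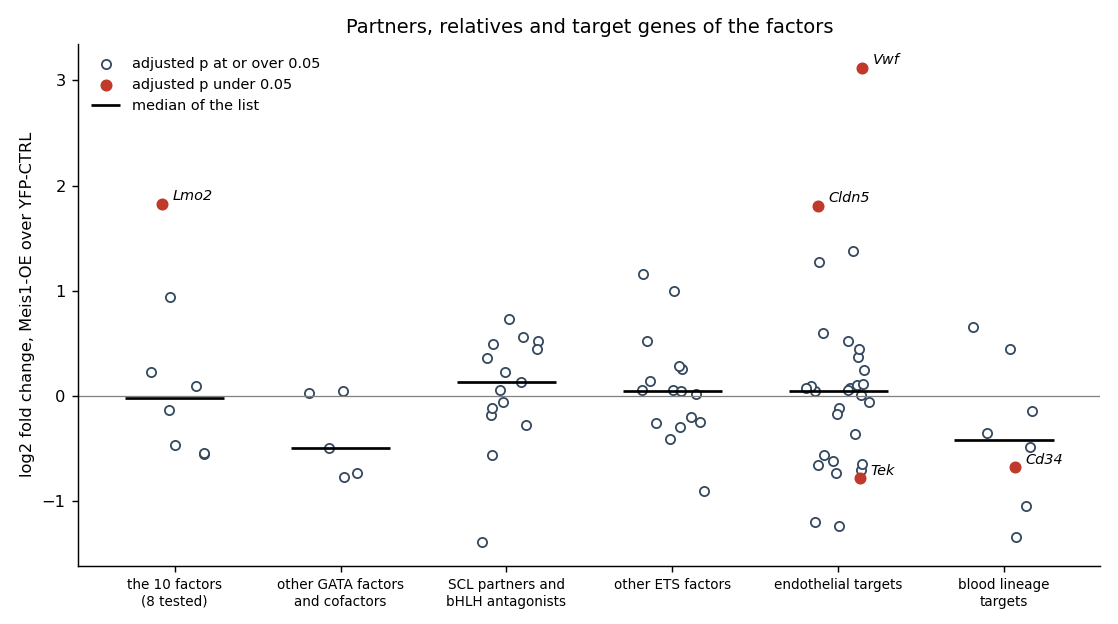
Log2 fold change (Meis1-OE over YFP-CTRL) of the 8 tested factors and every tested gene of the related lists, 1 point per gene, with filled points for genes past an adjusted p of 0.05 in edgeR's quasi-likelihood test and a bar at each list's median. Lmo2, Vwf, Cldn5, Tek and Cd34 are past the threshold, and the medians lie between -0.49 for other GATA factors and 0.14 for SCL partners.

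Markers of other cell types were measured beside these results. The 10 endothelial markers were all tested. Their summed level was 3660 to 4528 CPM in Meis1-OE and 4612 to 6401 CPM in YFP-CTRL libraries. The sum was led by Cdh5 (log2 fold change -0.70, edgeR adjusted p = 0.0535). By the fitted change, 5 of these markers went up and 5 went down, with a median log2 fold change of -0.02. At the threshold, edgeR called Cldn5 higher and Tek lower. At an unadjusted p under 0.05, 1 was higher (Cldn5) and 4 were lower (Cdh5, Kdr, Tek and Egfl7). DESeq2 called 1 higher and 3 lower. The 7 macrophage markers summed to 0.503 to 1.45 CPM and 0.319 to 0.506 CPM, with 4 of 7 at 0 counts and Lyz2 the highest on average. The 9 fibroblast and smooth muscle markers summed to 15.8 to 17.9 CPM and 34.9 to 54.2 CPM. Pdgfra was the highest of these on average, at 11.88, 11.79 and 11.75 CPM in Meis1-OE libraries and 33.3, 49.1 and 15.6 CPM in controls. Its log2 fold change was -1.47 (edgeR adjusted p = 0.0598). Of the 3 tested, 1 had a positive log2 fold change (Pdgfrb, 0.55) and 2 a negative one. Acta2, a smooth muscle actin, ran over 0.206, 2.18 and 19.9 CPM in controls and 3.33, 1.41 and 0.993 CPM in Meis1-OE libraries. The 9 T cell and erythroid markers summed to 1.62 to 2.59 CPM and 1.67 to 4.27 CPM, with the most in Lck. The 4 lymphatic markers summed to 178 to 187 CPM and 280 to 558 CPM. Of the 2 tested, Flt4 overlapped between the groups (log2 fold change 0.05, edgeR adjusted p = 0.948). It had 105.7, 100.2 and 102.8 CPM in Meis1-OE libraries and 50.3, 97.1 and 151.1 CPM in controls. Lyve1 fell, at 76.1, 78.0 and 84.1 CPM against 230.0, 461.3 and 161.2 CPM (log2 fold change -1.84, edgeR adjusted p = 0.0301, 0.121 to 0.149 with single Meis1-OE libraries left out, and 0.154 with the S and G2/M score in the fit), while Prox1 and Pdpn, which define that lineage, were at or under 2 counts. The part of these markers in the results on the factors was not tested.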

How the data were processed

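RNA was measured in 6 libraries of primary aortic EC (3 Meis1-OE, 3 YFP-CTRL). The authors deposited estimated counts per gene, not normalized, for 54429 genes; the aligner and counter are not given in the sources used here, the submitters' processing notes name mm10, and no source says whether strand was used in counting. Counts were rounded, scaled by TMM, filtered with filterByExpr (16065 genes kept) and tested with edgeR 4.0.16 (quasi-likelihood, Benjamini-Hochberg, adjusted p 0.05) in R 4.3.3, with DESeq2 1.42.0 as an alternative. The fit was also run on simulated counts with a common dispersion and no trend among controls, so that run does not cover the spread among controls seen here. Totals ran from 34176592 to 47956569 counts, and a value at or under 3 counts was treated as not detectable, an allowance for counting error only. As alternatives, scaling by DESeq2's size factors or to library totals, no filter or one of at least 10 counts per library, robust fitting, other thresholds, each library left out, a block by column letter and the S and G2/M score as a covariate were tried.

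Named genes were the 10 factors, Meis1 and Runx1, every gene of a related list that passed the threshold without overlap (otherwise the 3 with the highest mean CPM), and the most abundant marker of each cell type. The members and lists were chosen with earlier results of these data known. Libraries were assigned to conditions by their labels, and the letters of the table's columns are not tied to the replicate numbers there.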

Additional observations from a re-analysis of the deposited data

How the results depend on the processing

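The count of all genes called moved most. From 665 higher and 438 lower, it went to 1048 and 179 with library totals, 1128 and 1115 with DESeq2, 328 and 253 with the S and G2/M score as a covariate, 168 and 40 at a threshold of 0.01 and 1138 and 1073 at 0.1, and ranged from 115 to 2717 higher (fewest without Meis1-OE library B, most without YFP-CTRL library C) and from 16 to 2498 lower with single libraries left out. Of the factors, 1 higher became 0 at a threshold of 0.01 and ranged from 0 to 2 with libraries left out, and 0 lower became 1 with DESeq2 and at a threshold of 0.1 and ranged from 0 to 2.

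The direction changed for Gata3 with the covariate (0.86), for Erg with the covariate (-0.68) and, over libraries left out, from -0.24 to 0.56, and for Lyl1 from -1.004 to 0.037 over libraries left out, and the cause was not tested. Etv6 crossed 0 with library totals (0.0075), a scaling that moved the median of all genes from 0.01 to 0.15, and was negative under the other 13 alternatives. Lmo2, Gata2, Tal1 and Fli1 kept their direction under all 14 alternatives run for each.

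Libraries with the same column letter deviated together with correlations of 0.267, 0.12 and 0.0697 for A, B and C. Between different letters the correlations ran from -0.269 to 0.214, the highest for Meis1-OE library C and control B. The letters were not taken as pairs because the labels do not say that they mark a shared batch. With the letter as a replicate block, 544 genes were higher and 189 lower, the number of factors called stayed at 1 higher and 0 lower, and Lmo2 stayed at 1.83 (edgeR adjusted p = 0.00894).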
